A study of Mus musculus with 33 samples.

Results

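Bone marrow-derived macrophages that lack the NF-kB subunit p50 (p50KO) were compared with wild-type (WT) macrophages before and during exposure to CpG DNA. The comparison takes the arrays titled CpG of both genotypes at 0, 1, 3 and 8 h, which makes 4 matched pairs and 8 of the 33 arrays of the series. All 8 groups had the strain label C57BL/6 and were grown in medium conditioned by L929 cells for 5 to 8 days, so culture medium and strain label were common to both genotypes. WT cells at 0 h and p50KO cells at 0 h were unstimulated, and the 6 other groups had received CpG for 1, 3 or 8 h; no dose is stated in the labels. The labels do not say whether cells of several mice were pooled or whether WT mice were littermates of p50KO mice. RNA was measured on single-colour bead arrays, and every group had 1 array. A difference at a single time therefore has no test, and the tests below take the spread of the difference between times as their error. No label says that the arrays hold separate cultures or animals, so the p-values cover array-to-array spread that can be technical in part.

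NF-kB proteins bind DNA as dimers. The p50 subunit has no transactivation domain of its own: paired with RelA or c-Rel it takes part in activation, and as a homodimer it can occupy kB sites without activating. CpG DNA is sensed in endosomes by TLR9, which signals through the adaptor MyD88 to NF-kB and to interferon regulatory factors. Interferon regulatory factors and the complex formed after type I interferon binds its receptor act on interferon-stimulated response elements (ISRE) of antiviral genes, and the title of the series names repression through such elements by p50. The comparison asks which differences were already there before CpG and which appeared with it.

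Across the 8 arrays the summed intensity was 13100000 to 15020000, and 10456 to 11090 of 25697 probes lay above background (40.7 to 43.2%). The p50 transcript was not analysed here, and no targeted gene checks the labels. Macrophage markers were present in both genotypes: the summed linear intensity of the 8 markers tested was 51030 to 54760 in WT and 48950 to 52790 in p50KO, and 6 of the 8 were above background on every array. Of the other cell types, granulocyte and progenitor markers stood apart by genotype on these 8 arrays and are given with the results. The p50KO array titled CpG 3 h was nearer to WT at 8 h than to WT at its own time over 15 immediate-early genes (root mean square difference 0.626 against 0.729 log2). The same held for p50KO at 0 h (0.622 against 0.665), whereas the 1 h and 8 h arrays were nearest to their own time. A further 6 pairs, with LPS or interferon beta (IFNb), share no array with these. Among them the p50KO array titled LPS 1 h differed from its WT partner by 2.17 log2 over the immediate-early genes and by 0.621 from WT LPS at 3 h, and tests that use those pairs are given with and without that pair. Over all genes the p50KO array titled LPS 3 h was also nearer to a later WT array. It correlated at 0.9835 with WT LPS at 8 h and at 0.9499 with WT LPS at 3 h. Over the immediate-early genes it was nearer to its own time (0.692 against 0.895 log2). The LPS 3 h pair was not left out by itself, so leaving out the LPS 1 h pair does not settle the timing of the LPS arrays.

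Over the 4 pairs, 595 of 9161 genes (6.49%) differed between p50KO and WT by limma with Benjamini-Hochberg adjustment. Of these, 316 were higher in p50KO (3.45%) and 279 were lower (3.05%), and 594 of the 595 had the same sign at all 4 times. The test favours genes whose difference varies little between times, so that agreement follows from the call and adds no support. The share of all genes with the same sign at all 4 times was not counted. With the array medians set equal in place of quantile normalization the split was 238 higher and 319 lower. Without the 3 h pair 101 were higher and 74 lower, without the 0 h pair 189 and 136, without the 1 h pair 233 and 150, and with all 21 WT and p50KO arrays sharing the spread 65 and 48. At least 2-fold differences were counted at each time without a test. They numbered 42 higher and 21 lower at 0 h (0.458 and 0.229% of genes), 41 and 15 at 1 h (0.448 and 0.164%), 90 and 22 at 3 h (0.982 and 0.24%), and 199 and 35 at 8 h (2.17 and 0.382%). The number of genes at least 2-fold higher in p50KO was thus level over the early arrays and larger at 3 and 8 h. The numbers lower depended on the scaling: with array medians set equal they were 34, 16, 39 and 86, beside 60, 63, 86 and 177 higher.

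The differences were sorted by time using those same values, so the sorting is a description. Present at 0 h and at least 2-fold the same way at 1, 3 and 8 h were 19 genes higher and 7 genes lower in p50KO. A further 3 higher and 2 lower were at least 2-fold at 0 h and under 1.5-fold at 2 or more later times, and 20 higher and 12 lower fitted neither pattern. Under 1.5-fold at 0 h and first at least 2-fold later were 2 genes higher from 1 h, 35 higher and 2 lower from 3 h, and 107 higher and 15 lower from 8 h. Every gene of these classes was above background on at least 1 of the 8 arrays. The smallest members at 0 h lay on the border of the classes: Cxcl10 was inside at a difference of 1.01 log2 and Ccl12 at 1.00, while H2bc4 was outside at 0.9955 and Il1r2 at 0.9885.

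**Figure D1:**
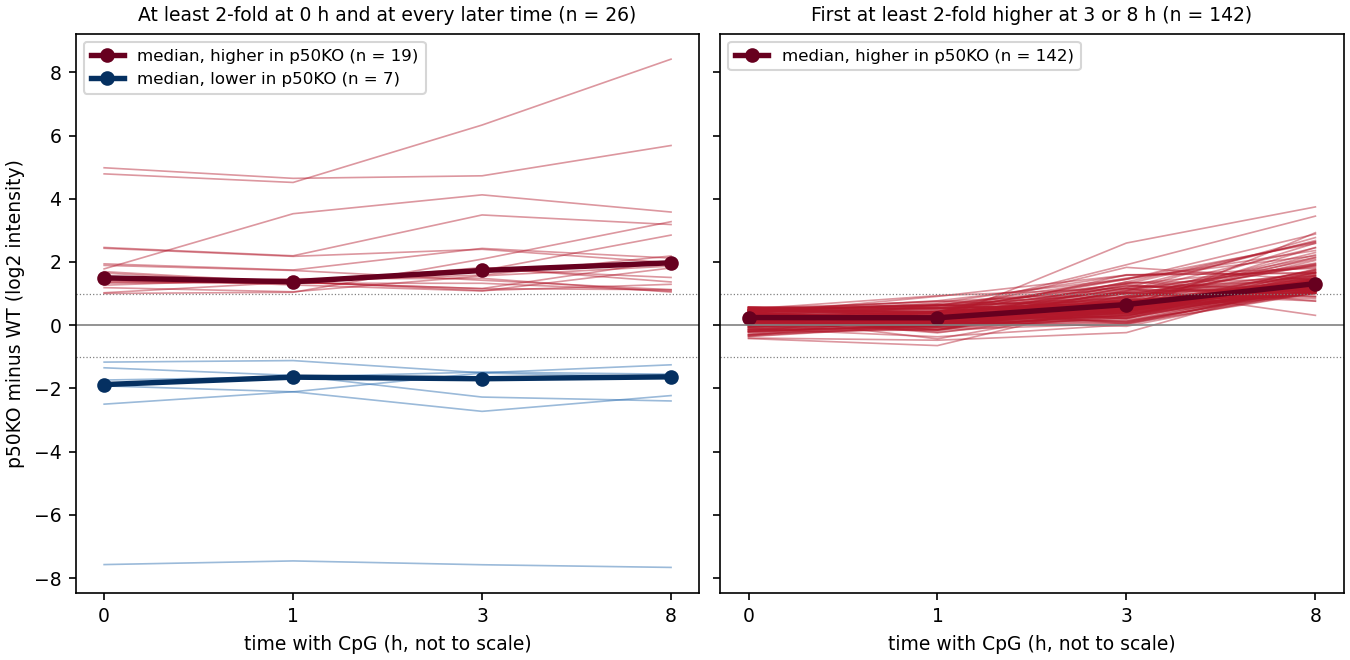
p50KO minus WT difference (log2 intensity) at each time with CpG for genes at least 2-fold different at 0 h and at every later time (left, 19 higher and 7 lower) and for the 142 genes first at least 2-fold higher at 3 or 8 h (right). Thin lines are genes, thick lines medians and dotted lines 2-fold. The median of the 142 moves from 0.243 at 0 h to 1.316 at 8 h, a rise that the choice of genes fixes, while the medians of the left panel stay past 2-fold.

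Of the genes kept lower from 0 h, Npy had the largest difference. It encodes neuropeptide Y, a secreted peptide of neurons that some macrophages also make. Npy was at 12.05, 12.003, 11.92 and 12.10 log2 in WT at 0, 1, 3 and 8 h, and at 4.48, 4.55, 4.34 and 4.44 in p50KO, where it was not above background on any array. The WT level was at least 106.9-fold higher, the bound being set by the lowest signal above background (mean difference -7.56 ± 0.08 log2, SE over 4 pairs, limma adjusted p = 5.05e-10). Within each genotype the 4 levels lay close together.

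Fkbp9, a peptidyl-prolyl isomerase of the endoplasmic reticulum, was at 8.04, 7.90, 8.18 and 8.24 in WT and at 5.55, 5.80, 5.46 and 6.02 in p50KO (-2.39 ± 0.11, adjusted p = 3.33e-05). The genotypes did not overlap and CpG changed neither by as much as the genotype. Casp4, the mouse caspase-11 that senses cytosolic LPS, was at 8.03, 8.05, 8.70 and 9.32 in WT and at 6.11, 5.95, 7.19 and 7.69 in p50KO (-1.79 ± 0.11, adjusted p = 0.000133). Its level was higher at 3 and 8 h than at 0 h in both genotypes, and the p50KO arrays stayed below the WT arrays throughout. Eif4e, the cap-binding factor of translation initiation, was at 6.78 to 6.89 in WT and at 5.01 to 5.21 in p50KO, where no array was above background, so that WT was at least 2.92-fold higher (-1.70 ± 0.08, adjusted p = 3.77e-05). Mcoln3, a cation channel of endosomes and lysosomes, was at 8.81 to 9.005 in WT and 7.10 to 7.46 in p50KO (-1.60 ± 0.08, adjusted p = 4.29e-05). Sdc2, the cell-surface proteoglycan syndecan-2, completed the set with -1.26 ± 0.09 together with Id1, which is described with its pathway.

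Among the genes kept higher from 0 h, the interferon-inducible Ifi202b and Gbp2b differed most. Ifi202b belongs to the p200 family of DNA-binding proteins. It was not above background on any WT array, at 5.01, 5.03, 5.07 and 4.94 log2, and was at 9.99, 9.68, 9.79 and 10.63 in p50KO, at least 26.55-fold higher (5.01 ± 0.16, adjusted p = 2.87e-06). Most of that difference was therefore present before CpG. Gbp2b encodes a guanylate-binding protein, a large GTPase that acts against intracellular microbes. It was at 4.30 to 4.36 in WT, not above background, and at 9.09, 8.88, 10.66 and 12.73 in p50KO, at least 33.03-fold higher over the 4 pairs (6.01 ± 0.54, adjusted p = 0.000795). At single times Gbp2b was at least 13.49-fold higher at 0 h and at least 189.8-fold at 8 h, and its rise with time was also called in the trend test given further on (adjusted p = 0.0473).

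**Figure D2:**
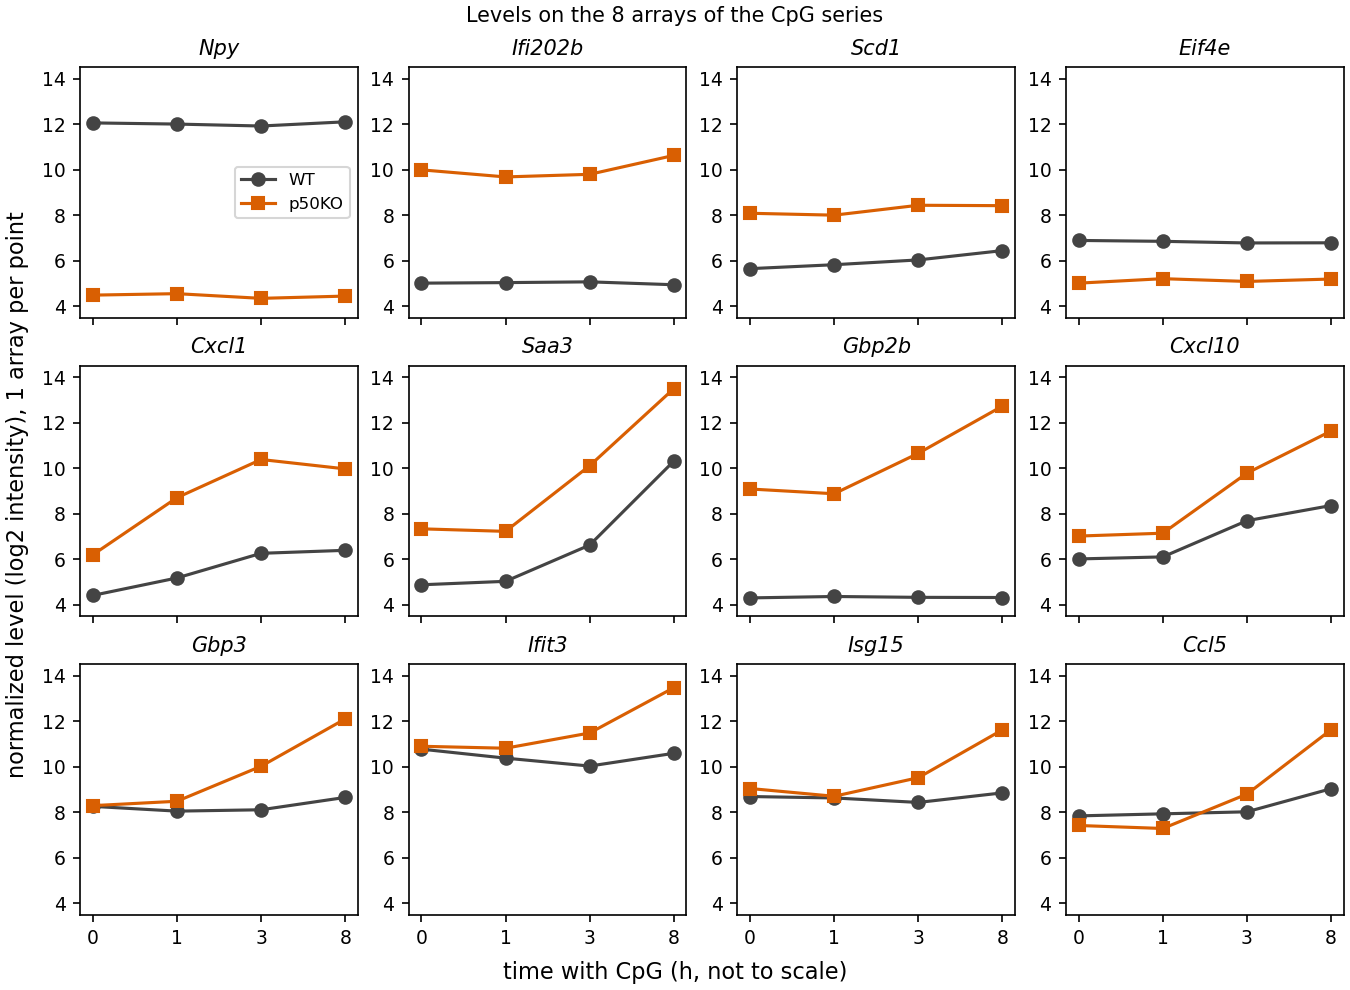
Normalized level (log2 intensity) of 12 genes at 0, 1, 3 and 8 h with CpG, with WT as dark circles and p50KO as orange squares, 1 array per point and the same vertical axis in every panel. Npy, Ifi202b, Scd1 and Eif4e are apart at all times with little movement, Cxcl1, Saa3, Gbp2b and Cxcl10 are apart at 0 h and move with CpG, and Gbp3, Ifit3, Isg15 and Ccl5 separate at 3 and 8 h.

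In the CpG pairs lipid synthesis genes were higher in p50KO before CpG and stayed so. Scd1, the desaturase that makes monounsaturated fatty acids, was at 5.65, 5.82, 6.03 and 6.44 in WT and at 8.08, 8.00, 8.43 and 8.42 in p50KO (2.25 ± 0.10, adjusted p = 2.53e-05). Its relative Scd2 was at 5.62 to 6.47 in WT and at 6.55 to 7.69 in p50KO (1.17 ± 0.12, adjusted p = 0.00152). Of 12 fatty acid and cholesterol synthesis genes tested, 8 were called higher and 0 lower, against 3.45% and 3.05% of all genes. The others called were Hmgcs1, an early enzyme of cholesterol synthesis, at 0.62 ± 0.08, the transcription factors Srebf2 and Srebf1 at 0.51 ± 0.08 and 0.39 ± 0.08, and Insig1, Lss and Sqle at 0.35 to 0.37. The median of the list was 0.331, 0.382, 0.466 and 0.379 log2 at 0, 1, 3 and 8 h, where that of all genes was -0.001, -0.001, -0.024 and -0.041. Fasn and Acaca, which build the fatty acid chain, had differences of -0.05 and 0.06 and were not called. The list was not higher in the LPS and IFNb pairs. Its median was -0.326, -0.692 and -0.081 at 1, 3 and 8 h of LPS and -0.026, -0.044 and -0.091 with IFNb. Over those pairs 0 of the 12 were called, and the LPS 1 h and 3 h values rest on arrays noted above for their timing.

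The acute-phase gene Saa3 and the neutrophil chemokines Cxcl1 and Cxcl2 were higher in p50KO at 0 h and at every time with CpG. Saa3, serum amyloid A, was at 4.88, 5.03, 6.62 and 10.31 in WT and at 7.34, 7.22, 10.11 and 13.50 in p50KO (2.83 ± 0.20, adjusted p = 0.000267). Cxcl1, a ligand of the neutrophil receptor CXCR2, was at 4.41, 5.18, 6.26 and 6.39 in WT and at 6.19, 8.70, 10.38 and 9.97 in p50KO (3.25 ± 0.31, adjusted p = 0.00113). The difference for Cxcl1 was 1.78 at 0 h and 3.53 or more at the later times. Cxcl2, a ligand of the same receptor, was at 4.65, 5.99, 7.27 and 8.26 in WT and at 6.59, 7.74, 9.70 and 10.38 in p50KO (2.06 ± 0.11, adjusted p = 7.72e-05). For Cxcl2 the genotypes were 1.75 to 2.43 apart at every time, and both were highest at 8 h. The WT levels of Saa3 and Cxcl1 were above background on 2 arrays each and that of Cxcl2 on 3, so the early differences are understated where WT was at background. Haptoglobin (Hp), a further acute-phase protein, was at 4.41, 4.83, 5.04 and 5.62 in WT and at 5.56, 5.36, 6.602 and 8.74 in p50KO (1.59 ± 0.34, adjusted p = 0.032). The call of Hp was lost under 6 of the 14 alternatives.

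Both chemokine promoters held kB letters, and they are shown because of this. The windows run from 250 bases before to 50 after the RefSeq start in build GRCm38.p6, 5′ to 3′ along the gene, and capitals mark matches to the kB letters searched (GGG, any 2 bases, TTTCC) on either strand. The window of Cxcl1 is chr5:90890995-90891294 on the plus strand and that of Cxcl2 is chr5:90903649-90903948 on the plus strand. In Cxcl1 the matches begin 89 and 71 bases before the start, and in Cxcl2 97 and 78 bases before it.
Cxcl1: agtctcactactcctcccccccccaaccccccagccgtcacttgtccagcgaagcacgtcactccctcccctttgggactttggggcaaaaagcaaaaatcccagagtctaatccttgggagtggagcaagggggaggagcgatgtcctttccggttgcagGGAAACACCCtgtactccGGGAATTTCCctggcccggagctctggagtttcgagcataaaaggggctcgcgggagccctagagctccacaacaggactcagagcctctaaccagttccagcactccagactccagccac
Cxcl2: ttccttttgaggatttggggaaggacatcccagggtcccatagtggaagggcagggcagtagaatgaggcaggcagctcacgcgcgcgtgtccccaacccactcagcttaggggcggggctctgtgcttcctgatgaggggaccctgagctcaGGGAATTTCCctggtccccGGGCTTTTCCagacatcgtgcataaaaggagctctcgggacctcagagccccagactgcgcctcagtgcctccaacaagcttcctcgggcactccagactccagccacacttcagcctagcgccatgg

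Of 15 chemokines tested, 6 were called higher and 0 lower, against 3.45% and 3.05% of all genes. Besides Cxcl1 and Cxcl2 these included Cxcl10, a ligand of the chemokine receptor CXCR3 found on T cells, with 1.85 ± 0.33. The others were the monocyte attractant Ccl12 with 1.53 ± 0.24, and Ccl6 and Ccl9 with 1.32 ± 0.10 and 0.37 ± 0.09. Ccl2, Ccl3 and Ccl4 had differences of 0.12, 0.26 and 0.22 and were not called. Among 18 inflammatory cytokines and enzymes 2 were called higher, Saa3 and Tnf (0.80 ± 0.17, adjusted p = 0.0314), and 1 lower. The latter was Ebi3, a subunit shared by interleukins 27 and 35, at 9.35, 9.46, 9.44 and 9.96 in WT and 7.82, 7.74, 8.20 and 9.32 in p50KO (-1.28 ± 0.16, adjusted p = 0.00319). The gap in Ebi3 was smallest at 8 h. Il27, the partner of Ebi3, was not above background on any WT array and at 6.98 in p50KO at 8 h, at least 3.513-fold above WT there (at least 1.04-fold over the 4 pairs). Il1b, the inflammasome cytokine, had a difference of 0.96 ± 0.24 and was not called (adjusted p = 0.0543), and Il6 had one of 0.06.

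The remaining genes kept higher from 0 h were of several kinds. F13a1, coagulation factor XIII of monocytes, was at 7.68, 7.73, 7.79 and 7.03 in WT and at 9.17, 9.12, 9.38 and 9.22 in p50KO (1.66 ± 0.13, adjusted p = 0.000531). The immediate-early genes Ier3 and Egr1 were higher on all 4 p50KO arrays, by 1.48 ± 0.10 and 1.35 ± 0.10. Oasl1, an antiviral protein related to the oligoadenylate synthetases, differed by 1.34 at 0 h and by 2.85 at 8 h (1.81 ± 0.23, adjusted p = 0.00319). Gpr84, Fcgr3, Mmp13, Plac8 and Ccl6 had mean differences of 1.32 to 1.51. The kallikreins Klk1b11, Klk1b27 and Klk1b8 are close paralogs that a probe may not tell apart, and their differences of 1.54, 1.33 and 1.28 are uncertain for that reason. With Scd1, Cxcl10 and the genes above, these make up the 19.

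In the CpG pairs genes of the BMP and TGF-beta pathway were lower in p50KO at the level of targets and an inhibitor. Of 14 tested, 1 was called higher and 5 lower, against 3.45% and 3.05% of all genes. Id1 and Id3, targets of BMP signalling that block basic helix-loop-helix factors, fell in p50KO by 1.90 ± 0.17 and 1.59 ± 0.20 log2 against WT. Id1 was at 9.58, 9.62, 9.14 and 8.72 in WT and at 8.24, 8.03, 6.87 and 6.33 in p50KO, so the difference was -1.35 at 0 h and -2.39 at 8 h while both genotypes went down. Smad6, the inhibitory Smad, was at 8.98, 9.05, 8.31 and 7.91 in WT and at 7.27, 7.16, 6.27 and 7.004 in p50KO (-1.64 ± 0.17, adjusted p = 0.00145). Id2 and the Smad co-repressor Skil differed by -0.92 ± 0.10 and -0.86 ± 0.11. The ligand Gdf3 was the member called higher, at 0.92 ± 0.08. The receptors Tgfbr1 and Tgfbr2 and the signal carriers Smad1, Smad2, Smad3 and Smad4 had differences between -0.22 and 0.12 and were not called. Over the LPS and IFNb pairs Id1, Id3 and Smad6 were not lower, at 0.16, 0.32 and 0.09, while Skil was at -0.21, none of them called. The list median there was -0.272, 0.618 and 0.56 at 1, 3 and 8 h of LPS and 0.245, 0.025 and -0.042 with IFNb.

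Glutathione and NRF2 target genes were also lower from 0 h, with 5 of 9 called lower and 0 higher, against 3.05% and 3.45% of all genes. Gclm, a subunit of the enzyme that starts glutathione synthesis, was at 11.75, 11.85, 11.84 and 12.29 in WT and at 10.81, 10.82, 10.58 and 10.89 in p50KO (-1.16 ± 0.10, adjusted p = 0.000628). Catalase (Cat), which breaks down hydrogen peroxide, was at 10.49 to 10.73 in WT and 9.76 to 10.00 in p50KO (-0.74 ± 0.08, adjusted p = 0.00195). The cystine transporter Slc7a11, sulfiredoxin (Srxn1) and the catalytic subunit Gclc differed by -0.56 ± 0.10, -0.43 ± 0.10 and -0.35 ± 0.08. Hmox1 and Nqo1 had differences of -0.41 and -0.21 and were not called. The list median was -0.565, -0.346, -0.241 and -0.486 at 0, 1, 3 and 8 h. In the LPS pairs it was 0.041, 0.014 and -0.136 at 1, 3 and 8 h, and in the IFNb pairs 0.171, 0.028 and -0.01.

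Markers of granulocytes and their progenitors also differed between the genotypes in the CpG pairs. Of 10 tested, 7 were called higher and 1 lower, against 3.45% and 3.05% of all genes. Their summed linear intensity was 1409 to 1675 in WT and 2199 to 2964 in p50KO, without overlap. The granule proteases Ctsg, Prtn3 and Elane were higher by 1.13 ± 0.10, 0.94 ± 0.08 and 0.64 ± 0.10, and the calcium-binding S100a9 and S100a8 by 1.05 ± 0.14 and 0.94 ± 0.11. Mpo and Ngp had differences of 0.54 ± 0.11 and 0.40 ± 0.10. The progenitor marker Cd34 had a difference of -0.68 ± 0.14 and was called lower, Csf3r had a difference of -0.01, and Camp was above background on no array. The median of these markers was 0.681, 0.503, 0.78 and 0.526 at 0, 1, 3 and 8 h of the CpG series. The other pairs did not show this, with -0.311, -0.778 and -0.311 at 1, 3 and 8 h of LPS and -0.368, 0.011 and 0.01 with IFNb. In bulk samples more cells of a type and more RNA per cell cannot be told apart, and the part of these cells in the differences above was not tested. Of 8 alternative activation genes listed only 3 were tested, the lectins Mrc1, Clec10a and Chil3, and all 3 were called higher, by 0.50 to 0.90. Their calls were lost under 1, 4 and 3 of the 14 alternatives. The median of the 3 was -0.015, -0.675 and 0.646 at 1, 3 and 8 h of LPS and 0.194, -0.159 and 0.122 with IFNb. Of the macrophage markers, Fcgr1 and Cd14 were called higher, at 1.31 ± 0.20 and 0.53 ± 0.08, and Cybb, the catalytic subunit of the phagocyte oxidase, was not, at 0.40 (adjusted p = 0.0578). Of 7 dendritic cell and MHC class II markers H2-DMa alone was called higher, at 0.67 ± 0.10. The class II genes Cd74 and H2-Ab1 had differences of 1.07 and 1.27 at 8 h and were not called. The B cell gene Cd79b, the only lymphocyte marker tested, was called higher by 0.46 ± 0.11, a call lost under 8 of the 14 alternatives. The erythroid, mast cell and fibroblast markers tested, among them Klf1, Fcer1a and Col1a2, were on no array above background.

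Few genes had a difference at 0 h that was then lost. Ube2c, a ubiquitin-conjugating enzyme of mitosis, was at 6.05, 6.34, 6.08 and 6.71 in WT and at 7.69, 6.90, 6.46 and 6.38 in p50KO. Ccna2, cyclin A2, was at 6.27 to 6.50 in WT and at 7.29, 7.01, 6.86 and 6.10 in p50KO, and the histone gene H2ac21 was 1.03 higher at 0 h and 0.02 higher at 8 h. For Ube2c and Ccna2 the p50KO level was above WT at 0 h and below it at 8 h, and both declines were called by the trend test (adjusted p = 0.0412 and 0.0473). In the opposite direction Sesn2, a stress-induced regulator of mTOR signalling, was at 6.86 in WT against 5.73 in p50KO at 0 h and at 5.87 against 5.81 at 8 h, and Golim4, a Golgi membrane protein, was at 8.30 against 7.30 at 0 h and at 7.82 against 7.25 at 8 h. Of 11 cell cycle genes tested, 0 were called over the 4 pairs, where 6.49% of all genes were. The list median went from 0.033 at 0 h to -0.396 at 8 h. The replication genes Pcna and Mcm6 had differences of 0.03 and 0.02 at 0 h and of -0.85 and -0.75 at 8 h.

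The lists of interferon-inducible genes had small median differences at 0 h and larger ones at 3 and 8 h. Of the 142 genes first at least 2-fold higher in p50KO at 3 or 8 h, 26 belonged to an interferon list and 116 did not. These lists are small beside the 9161 genes tested. They hold 29 antiviral effectors, 11 GTPases, 5 p200 genes, 13 signalling and regulatory factors and 2 type I interferons. The 142 were chosen by the values of these same arrays. Of 29 antiviral effectors tested, 1 was at least 2-fold higher in p50KO at 0 h and 17 were at 8 h, and 9 were called higher and 0 lower over the 4 pairs. The effector median was 0.163, 0.21, 0.637 and 1.315 log2 at 0, 1, 3 and 8 h. Of 11 interferon-inducible GTPases 1 was at least 2-fold higher at 0 h and 9 at 8 h, and the medians were 0.159, 0.182, 1.039 and 2.089. The 5 genes of the p200 family had medians of 0.396, 0.658, 1.044 and 1.674. At 0 h 3 of the 5 were higher in p50KO and 1 was at least 2-fold lower. The latter was Ifi204, with differences of -1.03, -0.74, 0.08 and 1.38. Of that family Aim2, a sensor of cytosolic DNA, was at 6.33 to 6.50 in WT and 7.31 to 7.65 in p50KO, close to 1 log2 higher at each time (1.09 ± 0.08, adjusted p = 0.000332). Ifi214 was at 5.77, 5.86, 5.48 and 5.71 in WT and at 6.17, 5.99, 6.67 and 8.39 in p50KO and was not called (adjusted p = 0.11). Over all genes tested the share at least 2-fold higher was 0.458% at 0 h and 2.17% at 8 h. Of all genes 3.45% were called higher and 3.05% lower over the 4 pairs.

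**Figure D3:**
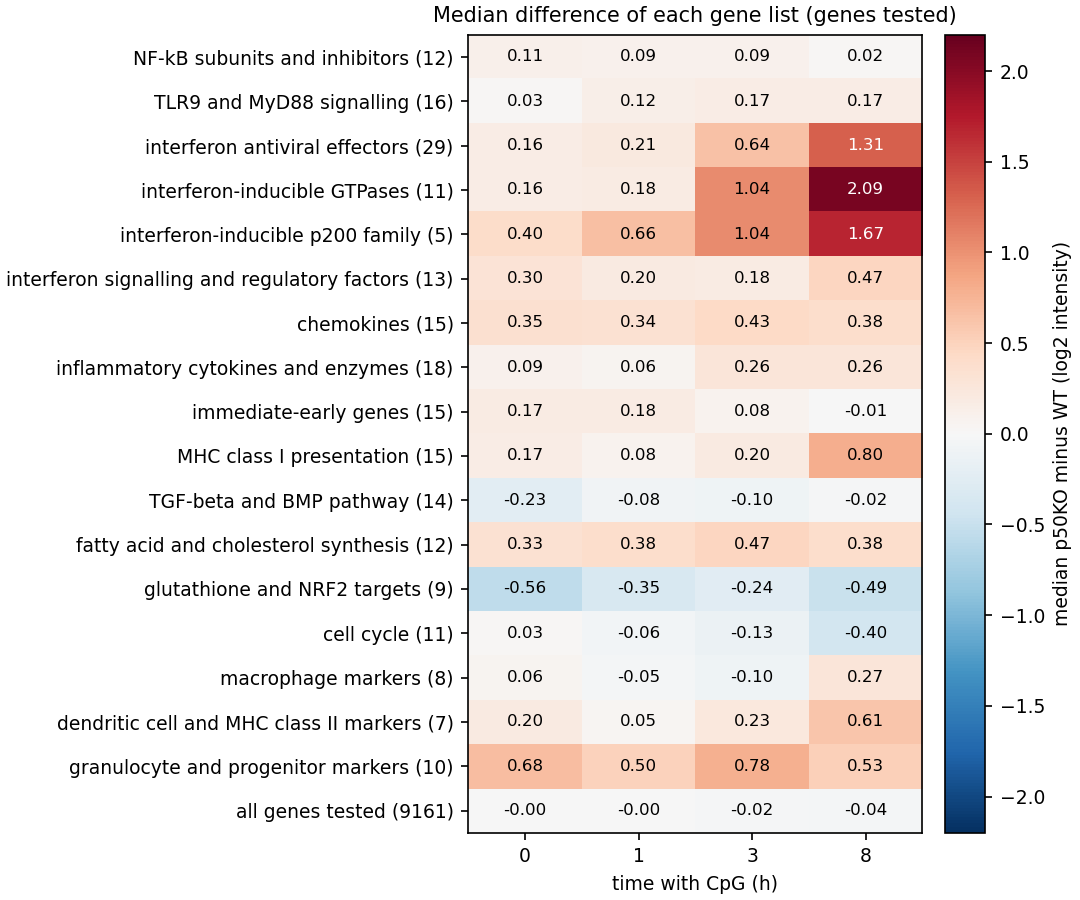
Median p50KO minus WT difference (log2 intensity) of each gene list with at least 5 genes tested, by time with CpG, with the number of genes tested in parentheses and all genes in the last line. Interferon-inducible GTPases go from 0.16 to 2.09 and antiviral effectors from 0.16 to 1.31, while fatty acid and cholesterol synthesis and granulocyte markers are above 0, and glutathione genes below 0, at each time.

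Gbp3, a further guanylate-binding protein, was level between the genotypes before CpG. It was at 8.26, 8.05, 8.11 and 8.65 in WT and at 8.29, 8.48, 10.02 and 12.10 in p50KO, 0.03 apart at 0 h and 3.45 log2 apart at 8 h. Gbp5, which also takes part in inflammasome assembly, was at 4.80, 4.93, 5.25 and 6.17 in WT and at 4.93, 5.10, 7.85 and 9.91 in p50KO, above background on 1 and 2 arrays. Gbp2 had differences of -0.14, 0.12, 1.37 and 2.64. The WT levels of Gbp3 and Gbp5 moved by less than 1.5 log2 over the 8 h.

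Ifit3, which binds viral RNA together with other Ifit proteins, was at 10.77, 10.38, 10.03 and 10.59 in WT and at 10.90, 10.82, 11.49 and 13.48 in p50KO. Isg15, a ubiquitin-like protein that is attached to other proteins in the antiviral state, was at 8.69, 8.63, 8.43 and 8.85 in WT and at 9.04, 8.70, 9.52 and 11.63 in p50KO. For both genes WT at 8 h was about where it was at 0 h, and p50KO at 8 h was the highest array. Cxcl10 was at 6.01, 6.10, 7.69 and 8.36 in WT and at 7.02, 7.14, 9.78 and 11.64 in p50KO, a gap of 1.01 at 0 h and 3.28 at 8 h. Unlike Ifit3 and Isg15, Cxcl10 was also higher with CpG in WT. Rsad2, the antiviral enzyme viperin, was at 10.78, 10.62, 10.34 and 11.22 in WT and at 11.65, 11.45, 11.95 and 13.80 in p50KO (1.47 ± 0.26, adjusted p = 0.014). Mx1, a dynamin-like antiviral GTPase, was not above background on any WT array and was at 5.97, 5.69, 6.64 and 8.34 in p50KO, at least 2.58-fold higher (1.54 ± 0.37, adjusted p = 0.0482), a call lost under 7 of the 14 alternatives. Ccl5, a T cell and monocyte attractant, was at 7.84, 7.93, 8.02 and 9.04 in WT and at 7.42, 7.29, 8.80 and 11.63 in p50KO, below WT at 0 and 1 h and above it at 3 and 8 h.

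The promoter windows of 7 of these genes are printed because the title of the series concerns interferon response elements. They were chosen among windows that hold a match, so they do not show how common one is, and the windows of Oasl1, Cmpk2 and Ifit2 held none. Capitals mark matches to the ISRE letters searched (GAAA, any 2 bases, GAAA) on either strand, and in Gbp5 also the match to the kB letters given above. Other spellings of kB or ISRE sequences, such as gggaaattcc in Cxcl10, were not searched. Lower case therefore does not show that a site is absent. The windows are Gbp2b chr3:142594597-142594896, Gbp3 chr3:142559794-142560093, Gbp5 chr3:142496684-142496983, Gbp2 chr3:142620413-142620712 and Ifit3 chr19:34583279-34583578 on the plus strand, and Isg15 chr4:156200769-156201068 and Cxcl10 chr5:92348840-92349139 on the minus strand. In Gbp3 and Isg15 the matches overlap, and in Gbp3 the run also holds the form preceded by G bases (GGGAAA, any 2 bases, GAAA). A further RefSeq start of Gbp3 had a window with no match.
Gbp2b: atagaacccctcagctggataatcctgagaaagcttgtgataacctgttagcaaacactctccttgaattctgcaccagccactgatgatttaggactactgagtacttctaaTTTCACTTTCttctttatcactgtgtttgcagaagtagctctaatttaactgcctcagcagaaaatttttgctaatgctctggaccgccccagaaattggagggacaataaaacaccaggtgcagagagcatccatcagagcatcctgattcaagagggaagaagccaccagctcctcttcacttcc
Gbp3: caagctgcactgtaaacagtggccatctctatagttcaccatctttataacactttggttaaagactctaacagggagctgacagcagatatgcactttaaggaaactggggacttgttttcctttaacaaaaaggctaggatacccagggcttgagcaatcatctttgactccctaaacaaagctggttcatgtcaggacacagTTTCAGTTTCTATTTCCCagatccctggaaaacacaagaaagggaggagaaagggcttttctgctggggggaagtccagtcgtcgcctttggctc
Gbp5: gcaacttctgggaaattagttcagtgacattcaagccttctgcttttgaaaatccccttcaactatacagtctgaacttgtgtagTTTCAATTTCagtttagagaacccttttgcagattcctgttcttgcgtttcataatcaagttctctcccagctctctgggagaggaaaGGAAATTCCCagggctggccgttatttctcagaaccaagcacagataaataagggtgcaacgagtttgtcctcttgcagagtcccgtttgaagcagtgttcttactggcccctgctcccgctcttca
Gbp2: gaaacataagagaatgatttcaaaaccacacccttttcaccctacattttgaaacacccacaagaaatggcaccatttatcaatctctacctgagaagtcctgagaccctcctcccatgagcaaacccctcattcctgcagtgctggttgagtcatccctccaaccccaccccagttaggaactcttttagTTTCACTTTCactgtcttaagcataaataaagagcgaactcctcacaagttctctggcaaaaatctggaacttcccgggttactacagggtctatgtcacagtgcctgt
Ifit3: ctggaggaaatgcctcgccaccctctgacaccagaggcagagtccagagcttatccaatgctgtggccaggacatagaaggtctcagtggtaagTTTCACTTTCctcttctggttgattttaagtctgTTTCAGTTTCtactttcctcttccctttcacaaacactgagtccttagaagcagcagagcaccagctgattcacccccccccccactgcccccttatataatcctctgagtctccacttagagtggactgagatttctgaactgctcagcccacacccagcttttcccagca
Isg15: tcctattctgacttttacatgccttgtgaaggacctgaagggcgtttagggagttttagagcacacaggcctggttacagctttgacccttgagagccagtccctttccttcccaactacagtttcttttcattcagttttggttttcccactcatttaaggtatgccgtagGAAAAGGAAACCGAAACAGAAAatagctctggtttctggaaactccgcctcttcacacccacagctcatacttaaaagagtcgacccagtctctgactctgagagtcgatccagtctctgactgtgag
Cxcl10: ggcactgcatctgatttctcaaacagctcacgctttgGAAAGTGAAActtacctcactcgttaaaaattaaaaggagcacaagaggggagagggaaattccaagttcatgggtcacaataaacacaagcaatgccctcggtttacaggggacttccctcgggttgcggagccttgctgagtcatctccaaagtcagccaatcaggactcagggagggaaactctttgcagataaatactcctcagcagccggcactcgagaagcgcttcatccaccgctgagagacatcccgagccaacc

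The growth of these differences was tested in 2 forms. As a step, the mean difference at 1, 3 and 8 h was set against that at 0 h, and limma called 0 genes in either direction (374 at an unadjusted p under 0.05). As a trend with log2(time + 1), the form listed as the alternative, limma called 34 genes with a difference that rose (0.371%) and 8 with a difference that fell (0.0873%), and 1440 genes had an unadjusted p under 0.05. Of the 34, 13 belonged to an interferon list, of the sizes given above, and 21 did not. They included Gbp5 with a slope of 1.26 per unit (adjusted p = 0.0279), Gbp2b with 1.22 (adjusted p = 0.0473), Gbp3 with 1.12 (adjusted p = 0.0274), Ccl5 with 1.01 (adjusted p = 0.0473), Ifit3 with 0.89 (adjusted p = 0.0274) and Cxcl10 with 0.75 (adjusted p = 0.0325). Isg15 had a slope of 0.80 and was not called (adjusted p = 0.0826). The trend rested on the last pair: without the 8 h pair 1 gene was called rising and 0 falling. It also gave 0 and 0 when the 8 CpG arrays were normalized alone or when dim probes were kept, and 197 and 79 with the authors' normalized values.

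More genes passed 2-fold against 0 h in p50KO than in WT cells, each set against its own single 0 h array and without a test. In WT 4, 39 and 81 genes were at least 2-fold above 0 h at 1, 3 and 8 h, and 0, 1 and 11 at least 2-fold below it. In p50KO the corresponding numbers were 5, 75 and 246 above and 0, 4 and 90 below. Of the 142 genes first at least 2-fold higher in p50KO at 3 or 8 h, 19 were at least 2-fold above 0 h in WT at 8 h and 111 were in p50KO, with medians of 0.218 and 1.466 log2. The choice of these genes by their p50KO values favours p50KO in that count. Over the 4 pairs 41 of the 142 were called, against 3.45% of all genes called higher, a comparison that the choice of genes enters.

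Further late genes with large differences at 8 h were at background in WT. Cfb, complement factor B, was not above background on any WT array and reached 7.41 in p50KO at 8 h, at least 4.758-fold above WT. Isg20, an interferon-induced exonuclease, and Tsc22d1, a leucine zipper regulator, were at least 4.229-fold and 3.616-fold higher at 8 h, and over the 4 pairs at least 1.23-fold and 1.22-fold higher. From 1 h the genes first past 2-fold were Nfkbiz, the nuclear IkB-zeta, and Basp1, a membrane and nuclear adaptor. Nfkbiz was at 6.72, 7.55, 8.32 and 8.30 in WT and at 7.29, 8.69, 9.79 and 9.61 in p50KO, with 0 h the lowest array of each (1.13 ± 0.14, adjusted p = 0.00312). Basp1 differed by 0.50 ± 0.13 and was not called.

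Genes that became lower with CpG in p50KO were fewer. Fos, a subunit of AP-1, was at 9.61, 9.39, 10.39 and 10.68 in WT and at 9.53, 8.95, 9.47 and 9.22 in p50KO, so the WT arrays at 3 and 8 h were the high ones, and its trend was called (slope -0.44, adjusted p = 0.0351). Phlda3, a pleckstrin-homology protein of the p53 response, was at 8.60 against 8.79 at 0 h and at 8.91 against 7.67 at 8 h (slope -0.46, adjusted p = 0.0473). Dmwd, Erdr1 and Ccp110 were at 8.81, 7.55 and 6.94 in p50KO at 8 h, against 10.22, 8.92 and 8.09 in WT. Of 15 immediate-early genes, Ier3 and Egr1 were called higher and Junb lower (-0.43 ± 0.08, adjusted p = 0.0238), against 3.45% and 3.05% of all genes. From 3 h, Mpdu1 and Defb15 were at least 2-fold lower at that time alone, and Defb15 was above background on 1 WT array and on no p50KO array.

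Of 12 NF-kB subunits and inhibitors tested, 2 were called higher, Nfkbiz and the deubiquitinase Tnfaip3 (0.80 ± 0.12, adjusted p = 0.00632), and 1 lower, Tnip1 (-0.41 ± 0.10, adjusted p = 0.046), against 3.45% and 3.05% of all genes. The call of Tnip1 was lost under 8 of the 14 alternatives. Rela, Rel and Relb had differences of 0.07, 0.02 and 0.16. Of 16 genes of TLR9 and MyD88 signalling, the adaptor Myd88 at 0.65 ± 0.11 and the kinase Map3k8 at 0.49 ± 0.12 were called higher and 0 lower, and the call of Map3k8 was lost under 7 of the 14 alternatives. Myd88 was at 11.19, 11.17, 11.51 and 11.56 in WT and at 11.63, 11.63, 12.16 and 12.60 in p50KO.

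Of the type I interferons, Ifnb1 was above background on none of the 8 arrays, at 4.21 to 4.31 in WT and 4.39 to 5.10 in p50KO, and Ifna6 had a difference of -0.03. Among 13 interferon signalling and regulatory factors 3 were called higher, Irf1 (1.12 ± 0.22, adjusted p = 0.0217), the feedback inhibitor Socs3 (1.01 ± 0.23, adjusted p = 0.0419) and Irf4 (0.67 ± 0.08, adjusted p = 0.00293), against 3.45% and 3.05% of all genes; the call of Socs3 was lost under 6 of the 14 alternatives. Irf1 was at 10.56, 10.89, 11.08 and 11.29 in WT and at 10.95, 11.59, 12.66 and 13.09 in p50KO, and its trend was called (adjusted p = 0.0473). Irf4 was above background on no WT array and on all 4 p50KO arrays, at least 1.13-fold higher. Irf7, the main driver of interferon alpha genes, was at 8.28, 8.00, 7.95 and 8.10 in WT and at 8.76, 8.39, 8.48 and 9.85 in p50KO, and was not called (adjusted p = 0.0631). Of 15 MHC class I presentation genes, the immunoproteasome subunit Psmb9, the peptide transporter Tap1 and the regulator Nlrc5 were called higher, by 0.57 ± 0.10, 0.61 ± 0.14 and 0.48 ± 0.12, and 0 lower, with a list median of 0.165 at 0 h and 0.797 at 8 h. The call of Tap1 was lost under 6 of the 14 alternatives. Psmb10, a further immunoproteasome subunit, had a difference of 1.43 at 8 h and was not called (adjusted p = 0.0869).

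The ISRE letters, searched on both strands, were in the promoter window of 26 of the 119 late genes that have one (21.8%). For the genes first higher at 3 h it was 29% of 31 and for those at 8 h 19.3% of 88, while of all genes tested with a window 3.99% of 7523 held them and of all 32851 windows 3.44%. Among genes kept higher from 0 h, 4 of 17 held an ISRE match (23.5%), namely Cxcl10, Gbp2b, Mmp13 and Saa3, and among genes kept lower 0 of 5. Of genes called lower over the 4 pairs 1.79% of 223 held it. The kB letters were in 3 of 17 windows of the genes kept higher (17.6%), those of Cxcl1, Cxcl2 and Fcgr3, in 4.2% of the late genes and in 2.06% of all genes tested and 1.63% of all windows. The form preceded by G bases, which contains an ISRE match, was in 4.2% of late genes, 0.452% of genes tested and 0.335% of all windows. A match is a run of letters, not a site shown to be bound, and these shares were not tested. They count the spelling searched alone, and kB or ISRE sequences spelled otherwise were not counted.

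**Figure D4:**
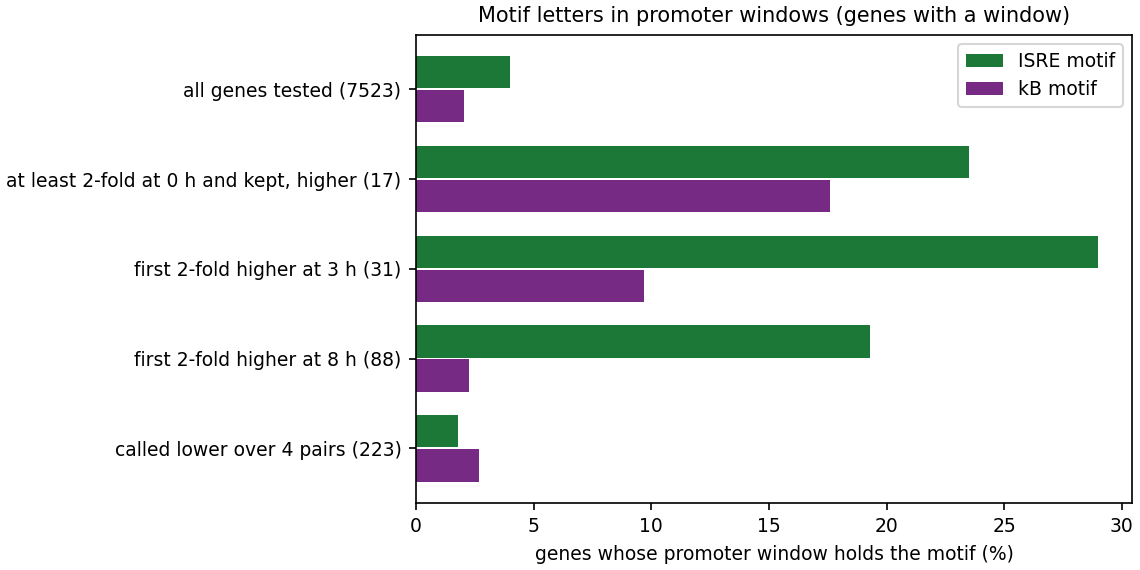
Share of genes (%) whose promoter window, 250 bases before to 50 after the RefSeq start, holds the ISRE or the kB letters on either strand, with the number of genes that have a window in parentheses. The ISRE share is 29% and 19.3% in genes first higher at 3 and 8 h, against 3.99% of all genes tested.

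The LPS and IFNb arrays give 6 further p50KO and WT pairs. Over them 4 genes were called higher (0.0437%) and 11 lower (0.12%), and 3 and 8 without the LPS 1 h pair. Of the 595 genes called with CpG, 13 were also called there, 12 in the same direction, and 10 and 9 without the LPS 1 h pair. Eif4e and Mcoln3 had nearly the same difference in both sets, -1.71 (adjusted p = 0.00178) and -1.73 (adjusted p = 0.0171) over the 6 pairs. Without the LPS 1 h pair Eif4e was at -1.67 and Mcoln3 at -1.72, and Mcoln3 was no longer called (adjusted p = 0.074). Gbp2b, at background on all 6 WT arrays, was at least 186.7-fold higher (adjusted p = 0.00178, and 0.00953 without that pair). Gdf3 was 1.57 higher over the 6 pairs and 1.61 without it. Cap1, an actin-binding protein, was the exception, with -0.54 in the CpG pairs and 1.14 in the others (1.18 without the LPS 1 h pair). Of the 316 genes called higher with CpG, 220 (69.6%) had a positive difference over the 6 pairs, where 46.4% of all genes did, and of the 279 called lower 188 (67.4%) had a negative one. Without the LPS 1 h pair these shares were 63.3%, 48.3% and 64.2%.

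Several of the differences present at 0 h were set apart from those pairs by a test of the difference between the sets, which called 10 genes higher (0.109%) and 7 lower (0.0764%) in the CpG pairs, together 0.186%. Without the LPS pairs it called 69 and 45, without the IFNb pairs 1 and 1, and without the LPS 1 h pair 11 and 10. Of the 17 genes, 17, 2 and 15 were among those called, and all 17 kept their sign in each. Npy differed by -7.56 in the stimulated CpG pairs and by -0.43 in the LPS and IFNb pairs, and Scd1 by 2.19 and 0.02. Ifi202b differed by 5.02 and 0.71, and Cxcl1 by 3.74 and -1.03. For Cxcl1 the LPS pairs at 1 and 3 h were at -2.78 and -3.16, and both hold a p50KO array noted above for its timing. Without the LPS 1 h pair the difference between the sets was -7.04 for Npy, 2.18 for Scd1, 4.58 for Ifi202b and 4.43 for Cxcl1. Fkbp9, Id1, F13a1 and Prtn3 were called there too, also without that pair. The CpG arrays were also a series apart in level, with summed intensities of 13100000 to 15020000 where the LPS and IFNb arrays of both genotypes had 7433000 to 12450000. Agent and array series cannot be told apart for these genes, and no unstimulated p50KO array belongs to the other series. The 142 late genes had median differences of 2.044, 0.951 and 0.109 at 1, 3 and 8 h of LPS. The 1 h and 3 h values rest on the arrays noted above. With IFNb the medians were 0.084, 0.04 and 0.006. Over the 6 pairs 0 of the 142 were called, near the share of all genes called there (15 of 9161, 0.164%). The antiviral effectors had medians of 2.961, 0.771 and -0.08 with LPS and of 0.224, 0.115 and -0.047 with IFNb, and the interferon-inducible GTPases of 4.156, 0.71 and 0.055 and of 0.146, 0.024 and -0.164.

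**Figure D5:**
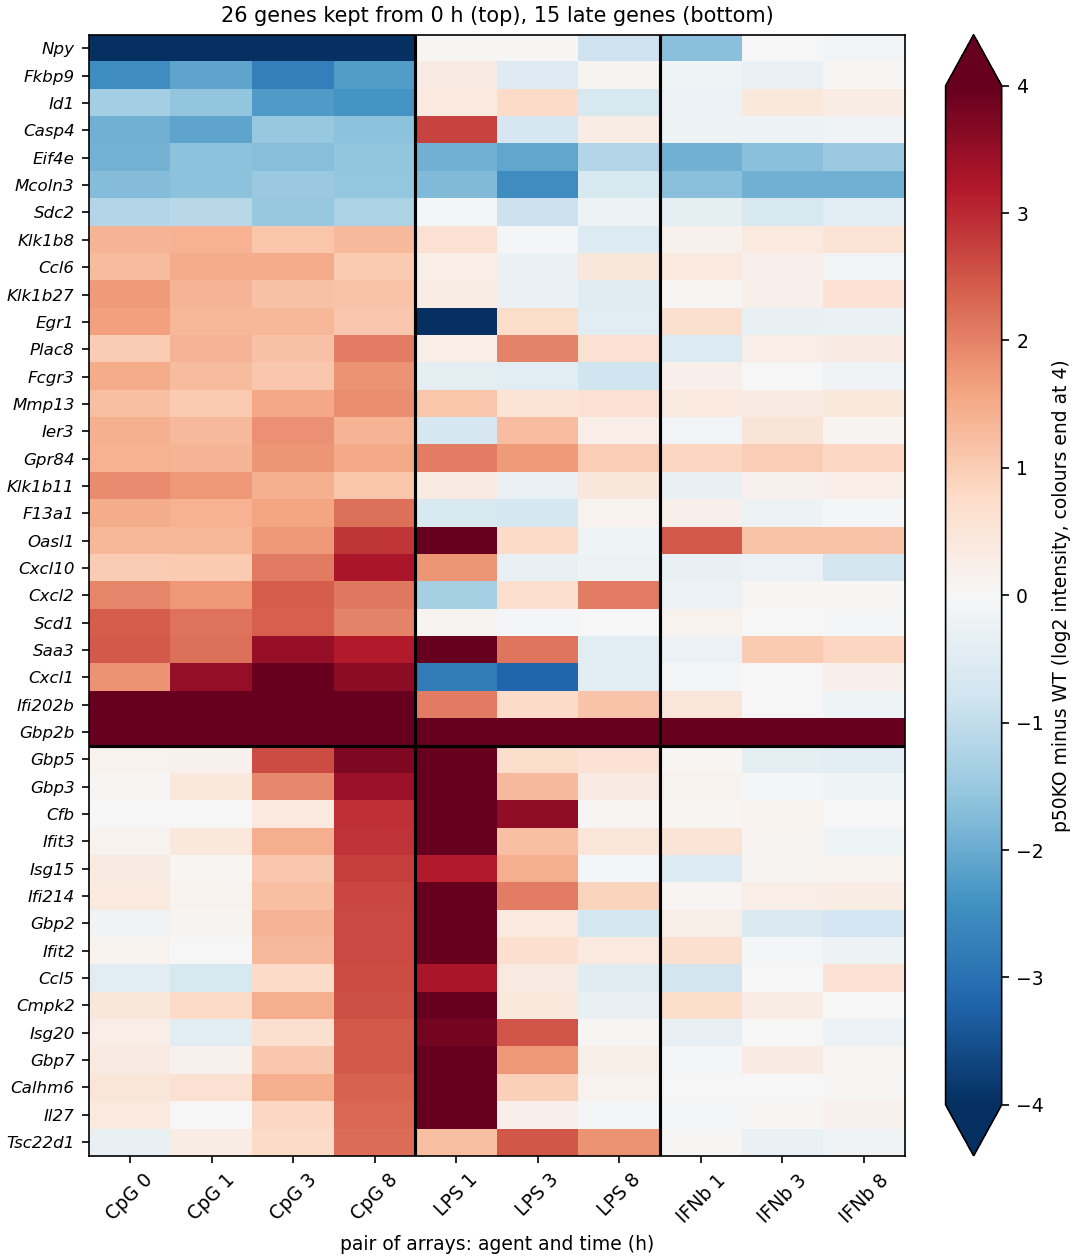
p50KO minus WT difference (log2 intensity, colours end at 4) in each of the 4 CpG, 3 LPS and 3 IFNb pairs for the 26 genes kept from 0 h (top) and the 15 late genes with the largest difference (bottom). Eif4e, Mcoln3 and Gbp2b keep their colour in all 10 pairs, Npy and Scd1 are strong in the CpG pairs alone, and the late genes are strong at CpG 8 h and on the LPS 1 h pair. Some late genes are strong at LPS 3 h as well, with Cfb at 3.56, Isg20 at 2.52 and Tsc22d1 at 2.47.

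The gene of p50 lies on chromosome 3, as do several genes above. On that chromosome 44 of 457 genes tested were called over the 4 pairs (9.63%), against 6.49% of all genes, 9.41% on chromosome 1 and 8.98% on chromosome 6. The 10 largest called there were Gbp2b, Eif4e, Mcoln3, Fcgr1, Fcrls, Gclm, S100a9, Csf1, S100a8 and Skil, and Gbp2, Gbp3, Gbp5 and Gbp7 are on it as well. Fcrls, an Fc receptor-like protein, was at 7.19 to 7.58 in WT and 8.47 to 8.81 in p50KO (1.19 ± 0.12, adjusted p = 0.00113). Csf1, the macrophage growth factor, was at 4.65 to 5.71 in WT and 5.58 to 6.75 in p50KO (0.97 ± 0.08, adjusted p = 0.000558). For genes of this chromosome, loss of p50 and a stretch of chromosome carried along with the disrupted gene cannot be told apart. Whether stretches of other chromosomes also differed between the mice was not tested.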

How the data were processed

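RNA of 8 macrophage arrays of the CpG series was read on Illumina MouseRef-8 bead arrays. The authors deposited bead intensity per probe on a linear scale, without normalization, and beside it a detection p-value against the negative controls of each array. The submitters' processing notes name BeadStudio without a version. The authors also deposited normalized intensity, made by a method not given in the sources used here, which served as an alternative. In the unnormalized values 8 lines held no values, and 0 columns of per-sample values were left unused.

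Background was corrected by limma's nec (normexp from the detection p-values, offset 16), and the 23 macrophage arrays were quantile normalized together and put on log2. A log2 value here is computed from the intensity the authors deposited. Of 25697 probes 23978 had 1 gene symbol, 0 several and 1719 none, and 23962 matched a gene table of assembly GRCm38.p6. Genes needed a detection p under 0.01 on at least 2 of the 23 arrays (9161 genes), and the brightest probe stood for a gene that had several. Tests were two-sided limma fits (lmFit and eBayes, time or condition as a factor) with Benjamini-Hochberg adjustment over all genes tested, called at an adjusted p under 0.05. They were the p50 difference over the 4 CpG pairs, its step and its trend with time, the p50 difference over the 6 LPS and IFNb pairs, and the difference between the sets. The scripts were tested on simulated data. Errors are standard errors. A gene at background in all arrays of a genotype, or at a single time, is given as at least N-fold where that bound is above 1, against the higher of its own signal and the lowest signal above background on each array. Bead counts were not used, so the number of arrays limits the precision. Promoter windows are from RefSeq, and coordinates are those of GRCm38.p6, since the array files name no build.

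Named genes were the 10 largest called differences in each direction, the 5 largest of each time class in each direction, the 3 largest of each gene list and the 10 largest called on chromosome 3. Genes called in the trend, members of a list that were called and single genes of small classes were named after their values were seen. The comparison, the lists and the rule were chosen with earlier results of these data known. Alternatives were the background correction, scaling, the authors' values, the filter, the probe rule, the spread estimate, the arrays in the fit and leaving out each pair. Fits ran in limma 3.58.1 with statmod 1.5.0 under R 4.3.3, and tables and plots in pandas 2.3.3, numpy 2.4.6 and matplotlib 3.10.9 under Python 3.11.15.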

Additional observations from a re-analysis of the deposited data

Results flagged for a closer look

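A difference between p50KO and WT that itself differed between the CpG pairs and the LPS and IFNb pairs was looked for by an interaction of genotype with series in limma over 18 arrays at 1, 3 and 8 h, with Benjamini-Hochberg adjustment over 9161 genes. It called 10 genes higher and 7 lower in the CpG pairs. The number depended on the arrays: 69 and 45 without the LPS pairs, 1 and 1 without the IFNb pairs, and 11 and 10 without the LPS 1 h pair. Of the 17, 15 were still called without the LPS 1 h pair, all but Fads2 and Scd2 (adjusted p = 0.0606 for each). The values are the mean difference in the CpG pairs minus that in the others, in log2. Lower were Npy by -7.14 (adjusted p = 6.19e-06), Fkbp9 by -2.27, Id1 by -2.25, the lipid carrier Apoe by -1.71, Cap1 by -1.64, Rab32 by -1.09 and Zfp235 by -1.03. Higher were Cxcl1 by 4.78, Ifi202b by 4.31, Scd1 by 2.17, F13a1 by 1.93, Fcgr3 by 1.65, Camk2b by 1.57, Fcrls by 1.56, Scd2 by 1.37, Fads2 by 1.29 and Prtn3 by 1.25. Every CpG pair and every other pair lay on opposite sides of 0 for Cap1, Rab32, Zfp235, Prtn3, Fcrls and Camk2b. These were picked from the 17 called in largely the same pairs, so the separation is a description and adds no support. How many of all genes separate in that way was not counted.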

How the results depend on the processing

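Of 55 named genes called over the 4 pairs, 24 kept the call under all 14 alternatives, and the largest losses were 29 with all 21 WT and p50KO arrays sharing the spread and 18 without the 3 h pair. Over the 4 pairs, 197 genes were higher with no filter on dim probes, and 65 were higher and 48 lower with the 21 arrays sharing the spread. Leaving out a pair gave 101 to 323 higher and 74 to 228 lower. The step with CpG called 0 and 0 under the alternatives run except the trend (34 and 8) and leaving out the 1 h pair (58 and 22). The trend called 159 rising and 83 falling with an offset of 50, 170 and 85 with no background correction, 54 and 28 with array medians set equal, 197 and 79 with the authors' values, and 190 and 124 with an intensity trend in eBayes. It called 0 and 0 with no filter on dim probes and with the 8 arrays normalized alone, 16 and 1 with the mean of detected probes, and 50 and 15 with detection on at least 2 CpG arrays. Without a pair it called 1 to 115 rising and 0 to 52 falling, the lowest without 8 h and the highest without 1 h. The trend's alternatives, and leaving out the LPS 1 h pair, were chosen after seeing the data. Genes at least 2-fold higher at 0, 1 and 3 h were 21, 20 and 55 with an offset of 50, where 19 were lower at 8 h. With no background correction 22 and 21 were higher at 0 and 1 h and 20 lower at 8 h. With array medians equal 63 were higher at 1 h, and 34, 39 and 86 lower at 0, 3 and 8 h; that scaling moved the median of all genes to -0.1063 at 3 h and -0.1355 at 8 h, and the split at 8 h was 177 higher to 86 lower. The authors' values gave 25 and 25 higher at 0 and 1 h, and 9, 14 and 17 lower at 1, 3 and 8 h. The 8 arrays alone gave 64 higher at 0 h and 53 lower at 8 h. Over the LPS and IFNb pairs 10 genes were higher and 18 lower without the LPS pairs, and 1 and 0 without the IFNb pairs. The difference between the sets called 69 higher and 45 lower without the LPS pairs, 1 and 1 without the IFNb pairs, and 11 and 10 without the LPS 1 h pair. Among named genes the direction of 3 that were not called turned: leaving out a pair, Ccl5 ran from -0.0962 (without 8 h) to 0.9835, Fcer1a from -0.0154 (without 0 h) to 0.152, and Ifna6 from -0.081 to 0.0168 (without 0 h), with 0.0033 without 3 h. The cause of these shifts was not tested. No paired analysis was possible because the labels carry no replicate numbers, beyond the matching of arrays by time that the main test already uses. Signals near background limit what could be told of Cfb, Gbp5, Ifnb1 and Irf4.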
